A study of Homo sapiens with 2 samples.

Results

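MDA-MB-231 is an established human breast cancer cell line of the triple-negative kind, with neither hormone receptors nor amplified HER2. It is widely used as a model of invasive cells of mesenchymal shape. Its cells were profiled together with those of 5 other breast cancer lines by droplet-based 3′ single-cell RNA sequencing, in which each transcript molecule is counted once through a unique molecular identifier (UMI). The cells described here are the barcodes of suffix 2 in which the multiplexing oligo CMO301 held at least 80% of the oligo UMIs, with at least 1000 gene UMIs, at least 500 genes and at most 20% of UMIs from mitochondrial genes. They numbered 2840 of the 3127 barcodes of that suffix, and 19.1% of the 14866 cells that the same filters left in all 6 suffix groups. CMO301 was the highest oligo in 3127 of the 3127 barcodes.

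All 6 are human breast carcinoma lines, with no treatment named in the labels, and each was sampled as 1 culture, MDA-MB-231 at passage 4. Cells were detached, strained and marked with 1 oligo per line before 3 lines were mixed per pool. BT-474 and MDA-MB-453 shared the pool of MDA-MB-231, while the second pool held HCC38 with Hs578T and MDA-MB-436. The 2 deposited samples are the gene expression library and the oligo library of the same cells. With 1 culture per line there is no replicate check of any difference, no p-value is given, and intervals (all 95%, exact) cover counting error only. The second pool was captured apart from MDA-MB-231, so that line and pool cannot be told apart in comparisons with its 3 lines.

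Since no label ties an oligo to a line, the group was named from 5 markers, ARHGDIB, IL11, CD74, IFI27 and SPANXB1. All 5 were highest in the CMO301 group, with a summed level of 364 CPM (the usual scaling of summed UMIs by a group's total) beside 5.68 to 42.6 CPM in the other groups. These markers were chosen with earlier results of these data known, so they give no independent check of the name. By their own markers the remaining groups are called BT-474-like and, also of the same pool, MDA-MB-453-like, then HCC38-like, then Hs578T-like and last MDA-MB-436-like in the second pool. Where 5 values of the other groups are listed, they follow that order. CMO301 cells led none of the markers of those lines that reached 10 CPM. The genes of hormone receptor and HER2 type were low: ESR1, the oestrogen receptor, was at 0.147 CPM, PGR, the progesterone receptor, at 2.04 CPM and ERBB2, which encodes HER2, at 29.7 CPM, beside 23.3, 171 and 808 CPM in BT-474-like cells. On the scale of CPM + 1, all 7 genes of this receptor list lay 2-fold or more below the mean of the other 5 groups (median log2 ratio -3.26). Against the 3 groups of the second pool alone, which are triple-negative lines as well, the median was 0.19. MMP1, a collagenase often described in this line, had 3 UMIs in all MDA-MB-231 cells (0.0367 CPM).

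A median MDA-MB-231 cell held 26165 UMIs and 5444.5 genes, with 6.29% mitochondrial UMIs and 95.2% of oligo UMIs from CMO301. Medians over the other groups ran from 20274 to 38173 UMIs and from 5.88% to 14.6% mitochondrial UMIs, and each group summed to between 68.9 M and 91.9 M UMIs. The filters removed 54 barcodes for few UMIs or genes, 132 for mitochondrial share and 101 for oligo share. At the last of these limits the nearest kept cell had 80.05% CMO301 and the nearest rejected one 79.99%, and 99 members lay within 5 points of it. At the mitochondrial limit these values were 19.2% and 20.1%. No member shared its cell barcode with a group of its own capture, and 7 shared it with a group of the other capture. Scrublet, a caller of doublets, marked 18 of the 2840 members (0.634%), and these were kept and are described with the subgroups. Markers of the MDA-MB-453-like and BT-474-like cells of the same pool were met at a low level, and the part of free RNA in this was not tested. FGFR4 and TFAP2B, highest in MDA-MB-453-like cells at 385 and 432 CPM, were at 5.19 and 3.45 CPM in MDA-MB-231 cells. With every cell thinned to 10000 UMIs, 2.74% (2.16 to 3.41) of MDA-MB-231 cells held a TFAP2B UMI beside 95.5% (94.7 to 96.2) of MDA-MB-453-like cells, and 4.40% (3.68 to 5.23) beside 95.5% (94.8 to 96.2) held one of FGFR4. Without thinning, 7.36% and 12.1% of MDA-MB-231 cells held TFAP2B and FGFR4. Of the BT-474 markers, GRB7, IKZF3, PGR and PSCA were in 3.48%, 1.42%, 1.39% and 0.924% of thinned MDA-MB-231 cells. In BT-474-like cells these shares were 67.5%, 68.9%, 60.9% and 42.6%.

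Genes that set the line apart were sought first among the 10920 genes that reached 10 CPM in at least 1 group. A gene was taken as highest where it reached 50 CPM in MDA-MB-231 cells and was at least 4-fold above the next group on the scale of CPM + 1, which understates the ratio of low genes. The 20 genes that met this (0.183% of those tested) include genes of complement control, interferon response, antigen presentation and calcium binding and secreted proteins. The same rule gave 53, 55, 56, 77 and 18 genes in the other groups.

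The widest gap was that of C4BPB (ENSG00000123843, chromosome 1, 207088842 to 207099993, plus strand, protein coding), the beta chain of the C4b-binding protein that restrains complement. It was at 87.5 CPM in MDA-MB-231 cells and 0.972, 1.19, 0.250, 0.0416 and 0.0269 CPM in the other groups, 40.4-fold above the next group, with an interval of 85.5 to 89.6 CPM. The MDA-MB-231 cells thus stood alone, and 48.0% (46.2 to 49.9) of them held a C4BPB UMI at 10000 UMIs per cell. That share was 0.991% (0.622 to 1.5) in BT-474-like cells of the same pool. IFI27 (ENSG00000165949, chromosome 14, 94104836 to 94116698, plus strand, protein coding), an interferon-induced mitochondrial protein, was at 171 CPM in MDA-MB-231 cells and 1.73, 3.34, 2.90, 1.17 and 0.727 CPM in the other groups, 39.8-fold above the next, and 69.9% (68.2 to 71.6) of the cells held it. CD74 (ENSG00000019582, chromosome 5, 150401637 to 150412929, minus strand, protein coding), the invariant chain that guides MHC class II molecules, was at 74.5 CPM in MDA-MB-231 cells and 1.28, 1.5, 0.860, 0.0555 and 0.0942 CPM in the other groups, 30.2-fold above the next. IFI27 and CD74 were among the markers that named the group, so their height repeats that choice.

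Several of the other leading genes encode receptors, adaptors or secreted proteins. KLHL4, a kelch-domain protein, was at 54.0 CPM in MDA-MB-231 cells and 0.595, 0.940, 0.0218, 0.208 and 0.484 CPM in the other groups. ADGRF5, an adhesion G-protein-coupled receptor, reached 65.9 CPM beside at most 1.39 CPM elsewhere. RARRES2, which encodes the chemoattractant chemerin, was at 146 CPM in MDA-MB-231 cells and 1.77, 2.09, 4.56, 1.44 and 0.0807 CPM in the other groups. Its neighbour on chromosome 7, LRRC61, was at 80 CPM beside 0.499 to 13.3 CPM. SPINK4, a protease inhibitor of the Kazal type, was at 66.0 CPM beside at most 1.62 CPM, and SAA1, an acute-phase protein, at 222 CPM in MDA-MB-231 cells and 1.63, 2.89, 14.5, 0.402 and 23.8 CPM in the other groups. MDA-MB-231 cells were at least 8.98-fold above the next group in each of these but LRRC61, where the ratio was 5.67. ANKRD1, a classical target of the YAP coactivator, was at 153 CPM in MDA-MB-231 cells and 2.74, 1.68, 10.0, 11.2 and 1.01 CPM in the other groups, 12.6-fold above the next. HSD17B11, a steroid dehydrogenase of lipid droplets, OSBPL3, an oxysterol-binding protein, and IGFBP4, which binds insulin-like growth factors, were 6.59-fold, 5.40-fold and 5.38-fold above the next group. AL161431.1 (a long noncoding RNA), PLAC8, the ligand gene BMP4 and G0S2, an inhibitor of lipolysis, lay between 4.33-fold and 4.51-fold above it.

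The S100 family of small calcium-binding proteins gave 3 of the 20 genes, and these lie close together on chromosome 1, between 153534599 and 153567890. S100A4 (ENSG00000196154, chromosome 1, 153543613 to 153550136, minus strand, protein coding), associated with motility and metastasis, was at 1993 CPM in MDA-MB-231 cells and 67.4, 29.3, 80.9, 211 and 39.8 CPM in the other groups, 9.40-fold above the next. S100A6 was at 13474 CPM in MDA-MB-231 cells and 1395, 219, 2123, 2971 and 3251 CPM in the other groups, 4.14-fold above the next. With cells of at least 95% own oligo its log2 ratio to the next group was 1.99 and that of AL161431.1 1.88, and both then missed the 4-fold limit. S100A2, a basal-type member, was at 603 CPM in MDA-MB-231 cells and 11.3, 9.69, 118, 16.2 and 37.3 CPM in the other groups, 5.07-fold above the next. Each of them was present in nearly every cell, with a UMI of S100A4 in 99.3% (98.9 to 99.6), of S100A2 in 91.7% (90.6 to 92.7) and of S100A6 in 100% of the cells thinned to 10000 UMIs. In 12 of the 20 genes the next group was in the second pool. In C4BPB, IFI27, CD74, KLHL4, ADGRF5 and SPINK4 it was the MDA-MB-453-like group of the same pool, at 0.940 to 3.34 CPM. The part of free RNA in those low levels, and so in the folds, was not tested.

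**Figure D1:**
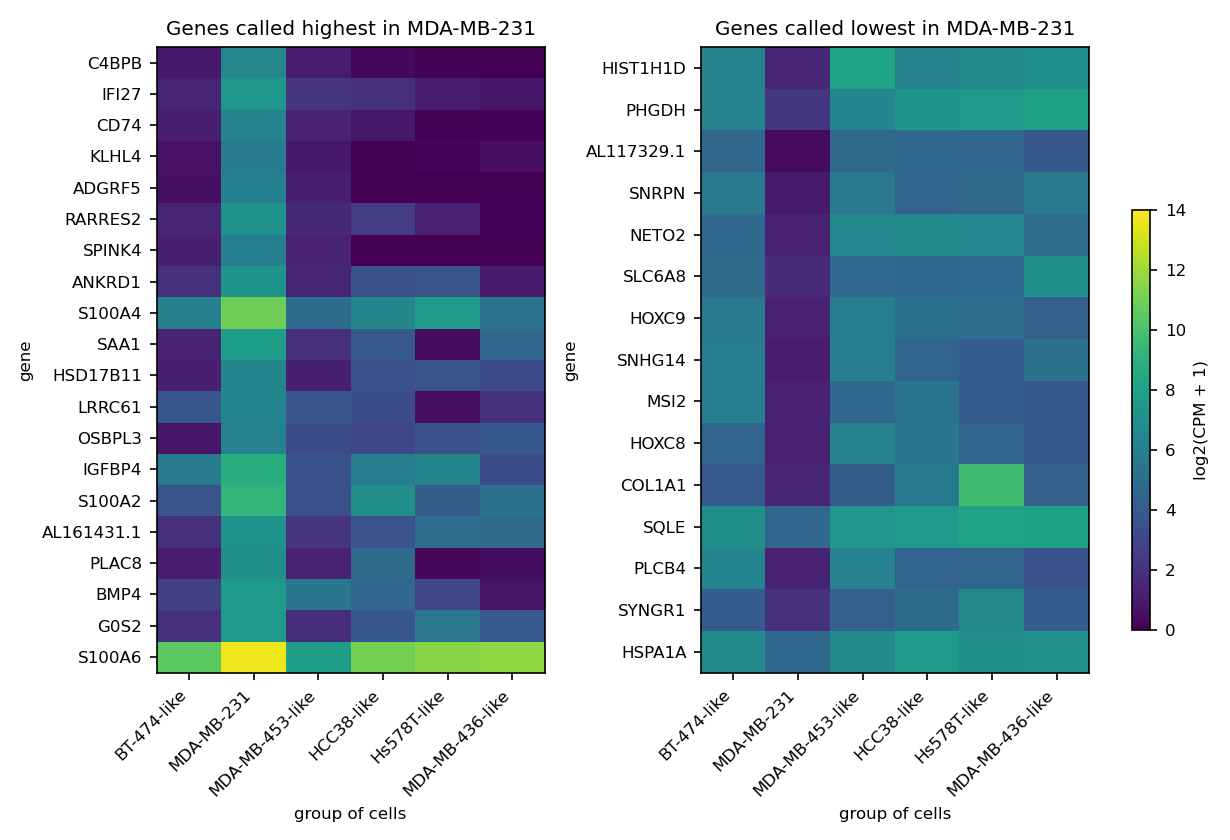
Heat maps of log2(CPM + 1) in the 6 groups (columns) for the 20 genes highest (left panel, rows) and the 15 genes lowest (right panel, rows) in MDA-MB-231 cells. The MDA-MB-231 column is the brightest in the left panel, with C4BPB at 87.5 CPM beside at most 1.19 CPM elsewhere. It is the darkest in the right panel, with PHGDH at 3.89 CPM beside at least 75.3 CPM.

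In the other direction, 15 genes (0.137%) were at least 4-fold below every other group, each of which was at 10 CPM or more. HIST1H1D, a linker histone, was at 1.79 CPM in MDA-MB-231 cells and 73.6, 266, 76.2, 101 and 114 CPM in the other groups, 26.8-fold below the lowest of the others. PHGDH (ENSG00000092621, chromosome 1, 119648411 to 119744226, plus strand, protein coding), the first enzyme of serine synthesis, was at 3.89 CPM in MDA-MB-231 cells and 75.3, 85.9, 151, 211 and 244 CPM in the other groups, 15.6-fold below the lowest of the others. PSAT1, the next enzyme, was not the lowest, at 60.7 CPM in MDA-MB-231 cells and 48.3, 1.67, 45, 95.8 and 104 CPM in the other groups. SHMT2, which uses serine, was at 44.2 CPM, near the lower end of the 42.9 to 68.3 CPM of the other groups. Other enzymes of the pathway are not described here.

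SNRPN and SNHG14, which overlap in the imprinted region of chromosome 15, were both low. SNRPN was at 1.05 CPM in MDA-MB-231 cells and 48.1, 46.8, 21, 28.1 and 49.4 CPM in the other groups. SNHG14 was at 1.19 CPM beside 15.5 to 63.1 CPM. HOXC9 and HOXC8, neighbouring homeobox genes on chromosome 12, were at 1.43 and 1.44 CPM beside 18.0 to 61.1 and 13.2 to 73.0 CPM. The other genes of this set were AL117329.1 (a long noncoding RNA), NETO2, the creatine transporter SLC6A8, the RNA-binding protein MSI2, COL1A1, PLCB4, SYNGR1, the squalene epoxidase SQLE and the chaperone HSPA1A. Their ratios to the lowest of the others lay between 4.02-fold for HSPA1A and 10.997-fold for AL117329.1. HSPA1A was close to the 4-fold limit and missed it under 5 alternatives. Its log2 ratio was -1.99 without a cell filter, -1.97 with at least 95% own oligo and -1.85 with a pseudocount of 5 CPM, and TMM scaling and the mean of single-cell CPM also put it just short of the limit. HSPA1A has a near-identical copy, HSPA1B, so that reads may have been split between them: HSPA1B was at 25.9 CPM beside 17.1 to 39.3 CPM. With a pseudocount of 5 CPM in place of 1 CPM, 6 of the 15 remained.

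Across all 10920 genes the MDA-MB-231 profile had a Pearson r of 0.813 with the MDA-MB-436-like, 0.808 with the Hs578T-like and 0.799 with the HCC38-like group, and of 0.733 and 0.737 with the MDA-MB-453-like and BT-474-like groups of its own capture. The r is taken across genes on the log2(CPM + 1) scale and is a description, as genes are not independent. Set against the mean of the other 5 groups, 729 genes (6.68%) lay 2-fold or more above it and 1927 (17.6%) 2-fold or more below it, and the median log2 ratio of all genes was -0.16. In the lists that follow, higher and lower mean 2-fold or more against this mean, and each count is to be read beside those 2 shares.

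Epithelial cells that take on a mesenchymal state lose junction proteins and gain filament, matrix and motility proteins, under repressors such as the ZEB and SNAI factors. MDA-MB-231 cells had 23 of 33 measured epithelial genes lower and 0 higher (median log2 ratio -2.30). CDH1, which encodes E-cadherin, was at 3.01 CPM in MDA-MB-231 cells and 204, 20.5, 91.6, 0.555 and 0.753 CPM in the other groups. The splicing regulator ESRP1 was at 1.98 CPM in MDA-MB-231 cells and 83.8, 106, 98.9, 0.624 and 0.834 CPM in the other groups. GRHL2, an epithelial transcription factor, was at 0.440 CPM beside 0.125 to 29.8 CPM. CDH1 and ESRP1 were thus far under the 3 groups with epithelial levels, yet above the Hs578T-like and MDA-MB-436-like groups. Those lower groups were in the second pool, while cells with much higher levels shared the pool of MDA-MB-231. The part of free RNA in the low CDH1 and ESRP1 levels of MDA-MB-231 cells was not tested. Other epithelial genes were kept at a sizeable level. KRT18, a keratin of simple epithelia, was at 796 CPM in MDA-MB-231 cells and 1499, 826, 682, 247 and 719 CPM in the other groups. KRT19 was at 536 CPM in MDA-MB-231 cells and 2547, 1375, 1654, 9.85 and 11.7 CPM in the other groups. EPCAM, an epithelial adhesion protein, was at 36.9 CPM in MDA-MB-231 cells and 191, 403, 473, 3.50 and 9.10 CPM in the other groups. SPINT2, a protease inhibitor, was at 263 CPM in MDA-MB-231 cells and 438, 420.1, 395, 3.82 and 5.44 CPM in the other groups. Against each other group in turn, the list median was -2.79, -3.03, -2.30, 1.69 and 1.14.

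Of 39 measured mesenchymal genes, 9 were higher and 18 lower (median -0.80). The order depended on the group compared: the list median was 3.36, 4.19, -0.26, -2.42 and 0.20 against the single groups, and 4.28 against the mean of the same pool. VIM, the filament vimentin, was at 2003 CPM in MDA-MB-231 cells and 53.1, 24.3, 564, 6848 and 1738 CPM in the other groups. ZEB1, a repressor of CDH1, was at 54.2 CPM in MDA-MB-231 cells and 0.522, 0.808, 4.21, 76.8 and 26.8 CPM in the other groups. SNAI2 was at 25.5 CPM in MDA-MB-231 cells and 0.305, 0.318, 6.66, 141 and 7.70 CPM in the other groups. AXL, a receptor kinase, was at 283 CPM in MDA-MB-231 cells and 4.25, 5.40, 84.2, 250.2 and 43.3 CPM in the other groups. CAV1, the coat protein of caveolae, was at 1580.2 CPM in MDA-MB-231 cells and 18.4, 19.5, 598, 1793 and 510.3 CPM in the other groups. For these genes MDA-MB-231 cells lay far above the other groups of their own pool. They lay within the range of the second pool, except for AXL, which was highest in MDA-MB-231 cells. That range was wide, with ZEB1 at 4.21 CPM in HCC38-like cells and 76.8 CPM in Hs578T-like cells. The list was not filled evenly. CDH2, which encodes N-cadherin, was at 0.269 CPM in MDA-MB-231 cells and 1.63, 2.26, 27.5, 288 and 61.6 CPM in the other groups. SPARC, a matrix glycoprotein, was at 0.135 CPM in MDA-MB-231 cells and 0.0435, 0, 97.9, 698 and 14.6 CPM in the other groups. TPM2, a tropomyosin of contractile filaments, was at 2.75 CPM in MDA-MB-231 cells and 0.276, 0.583, 539.7, 2145 and 156 CPM in the other groups. TWIST1 was at 0.685 CPM and TWIST2 had 0 UMIs, which allows up to 0.0451 CPM. All 10 markers of normal fibroblasts were lower (median -4.51, with a sum of 7.93 CPM beside 14.1 to 4193 CPM), and 3 of the 10 had 0 UMIs.

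Genes of tight junctions and adhesion at the surface were lower in 12 and higher in 3 of 24 (median -0.98). ESAM, an adhesion protein of endothelial junctions, was at 21.2 CPM in MDA-MB-231 cells and 1.77, 1.07, 0.240, 0.236 and 0.511 CPM in the other groups. CDH11, a cadherin of mesenchymal cells, was at 51.7 CPM in MDA-MB-231 cells and 1.20, 0.940, 3.14, 57.0 and 5.27 CPM in the other groups. Markers of endothelium and pericytes summed to 40.2 CPM beside 2.30 to 84.8 CPM in the other groups, of which ESAM and MCAM gave most, and the endothelial genes PECAM1 and CDH5 were at 0.905 and 0.0122 CPM. Basal genes split: 5 of 17 were higher and 8 lower (median 0.47, but -0.01 without the 10 CPM filter and -0.10 against the second pool alone). The integrin gene ITGA6 was at 245 CPM in MDA-MB-231 cells and 13.0, 54.8, 59.1, 8.74 and 69.5 CPM in the other groups. LAMB3, a laminin chain, was at 79.7 CPM in MDA-MB-231 cells and 2.19, 1.89, 32.5, 14.6 and 3.85 CPM in the other groups, while the basal keratins KRT14 and KRT17 were at 0.122 and 0.526 CPM.

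**Figure D2:**
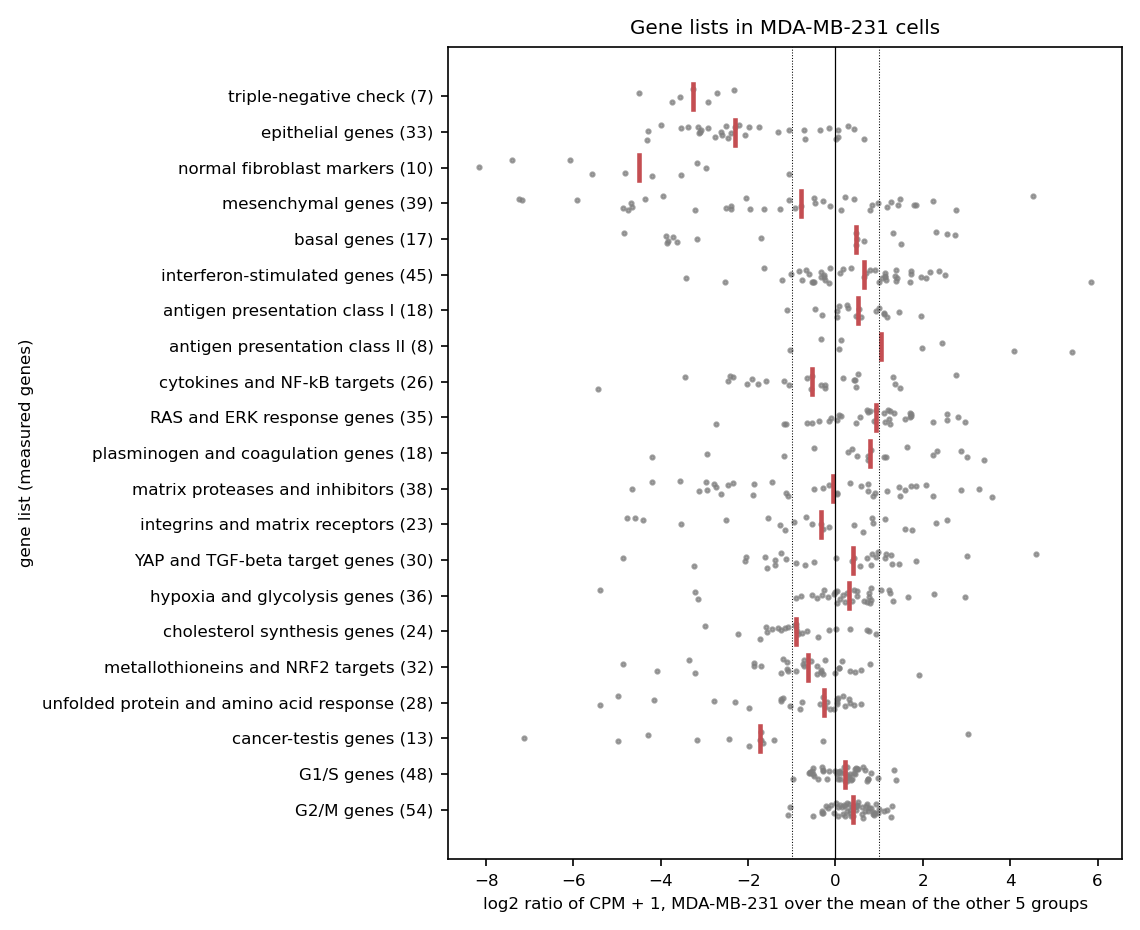
Log2 ratio of CPM + 1 in MDA-MB-231 cells to the mean of the other 5 groups (x axis) for each measured gene (points) of 21 gene lists (rows), with the median of each list as a red bar. The bar of the RAS and ERK response list sits at 0.92 and that of the epithelial list at -2.30, and the mesenchymal points spread widely on both sides of 0.

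Cells answer interferon by binding STAT and IRF factors to promoters of a shared set of antiviral genes, and antigen presentation genes belong in part to the same response. Of 45 measured interferon-stimulated genes, 18 were higher and 5 lower (median 0.65). Against the single groups the median was 2.37, 1.95, -0.20, 0.79 and 0.72, so only the HCC38-like cells were not lower by this median. ISG15, a ubiquitin-like modifier, was at 445 CPM in MDA-MB-231 cells and 9.58, 114, 362, 61.7 and 119 CPM in the other groups. IFIT3, an antiviral RNA-binding cofactor, was at 85.9 CPM in MDA-MB-231 cells and 0.972, 0.808, 58.5, 11.5 and 20.6 CPM in the other groups. IFITM2, a membrane protein that blocks viral entry, was at 43.2 CPM in MDA-MB-231 cells and 2.00, 23.7, 0.806, 7.16 and 0.202 CPM in the other groups. IFI27 was described above, and BST2, the tetherin of budding viruses, at 219 CPM in MDA-MB-231 cells and 4.93, 374, 6.1, 1.36 and 108 CPM in the other groups, was second to the MDA-MB-453-like group. At the low end CCL5, a chemokine, was at 0.294 CPM in MDA-MB-231 cells and 7.26, 0.569, 47.8, 0.791 and 7.67 CPM in the other groups. USP18, which removes ISG15 from proteins, was at 2.19 CPM in MDA-MB-231 cells and 11.8, 31.4, 34.2, 5.40 and 4.57 CPM in the other groups.

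In the MHC class I pathway, 5 of 18 genes were higher and 1 lower (median 0.51). Against the single groups the median was 1.87, 1.91, -0.15, 0.33 and 0.81, so the HCC38-like cells were not lower by it. HLA-B was at 356 CPM in MDA-MB-231 cells and 19.3, 7.20, 576, 198 and 135 CPM in the other groups. ERAP1, a peptidase that trims peptides for class I molecules, was at 13.0 CPM in MDA-MB-231 cells and 1.81, 2.69, 4.74, 7.45 and 3.70 CPM in the other groups. Class I heavy chain genes are similar in sequence, so that their reads may have been split. In the class II pathway 4 of 8 genes were higher and 1 lower (median 1.05). Besides CD74, HLA-DRA was at 18.1 CPM in MDA-MB-231 cells and 0.261, 0.119, 0.218, 0 and 0.0404 CPM in the other groups. HLA-DRB1 was at 13.6 CPM, HLA-DMA at 15.6 CPM, and CIITA, the coactivator of the class II genes, at 2.30 CPM in MDA-MB-231 cells and 0.232, 0.0927, 0.381, 0.125 and 0.175 CPM in the other groups. Of 20 immune cell markers, 12 had 3 UMIs or fewer in MDA-MB-231 cells, among them 8 with 0, and the pan-leukocyte gene PTPRC was at 0.0245 CPM. The list summed to 26.1 CPM, beside 2.22, 1.60, 9.84, 36.4 and 70.6 CPM in the other groups, and CD68, a lysosomal protein, gave 21.8 CPM of it. The part of immune cells in the class II values was not tested.

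ERK signalling below RAS and RAF induces its own feedback inhibitors, the DUSP and SPRY genes, together with growth factors of the EGF family and the FOSL1 transcription factor. Of 35 measured RAS and ERK response genes, 17 were higher and 3 lower (median 0.92), and against the single groups the median was 3.08, 2.196, 0.83, 0.67 and 0.72. Among ligands, AREG was at 469 CPM in MDA-MB-231 cells and 55.9, 16.0, 212, 2.37 and 11.2 CPM in the other groups. HBEGF was at 72.9 CPM in MDA-MB-231 cells and 1.13, 1.09, 7.35, 27.7 and 10.6 CPM in the other groups. Both were highest in MDA-MB-231 cells, and the receptor gene EGFR was also highest there, at 115 CPM beside 1.81 to 85.8 CPM. Among feedback genes, SPRY2 was at 57.1 CPM in MDA-MB-231 cells and 2.82, 2.45, 14.8, 13.6 and 11.2 CPM in the other groups. DUSP6, a phosphatase of ERK, was at 165 CPM in MDA-MB-231 cells and 23.5, 171, 4.76, 42.8 and 4.70 CPM in the other groups, where the MDA-MB-453-like group was as high. HMGA1, a chromatin protein, was at 688 CPM in MDA-MB-231 cells and 52.7, 99.4, 247, 276 and 377 CPM in the other groups. TRIB1 and EPHA4 were the lowest against the mean, at 3.58 and 6.94 CPM beside 9.55 to 50.6 and 4.01 to 41.4 CPM. The pathway's own components were nearer to the other groups: of 21 RAS, RAF and tumour suppressor genes, 1 was higher and 3 lower (median 0.07, and -0.02 against the same pool alone). BRAF was at 21.3 CPM in MDA-MB-231 cells and 23.6, 20.5, 17.9, 17.7 and 21.5 CPM in the other groups. NF2, a suppressor upstream of the Hippo kinases, was at 2.35 CPM in MDA-MB-231 cells and 14.7, 48.4, 34.9, 62.7 and 1.28 CPM in the other groups. NF1, which inactivates RAS, was at 17.4 CPM in MDA-MB-231 cells and 53.8, 88.2, 80.3, 44.0 and 29.4 CPM in the other groups.

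Proteolysis at the cell surface and coagulation share the plasminogen activators and their inhibitors. Of 18 such genes, 8 were higher and 3 lower (median 0.79). F3, tissue factor, the starter of coagulation, was at 280.5 CPM in MDA-MB-231 cells and 4.44, 5.71, 106, 44.5 and 8.42 CPM in the other groups. F2RL1, a receptor cleaved by proteases, was at 35.7 CPM in MDA-MB-231 cells and 1.12, 1.20, 4.86, 4.84 and 0.283 CPM in the other groups. PLAU, the urokinase, was at 111 CPM in MDA-MB-231 cells and 2.21, 2.14, 27.4, 44.2 and 37.6 CPM in the other groups. PLAT, the tissue-type activator, was at 39.6 CPM beside 0.940 to 15.2 CPM. All 4 were highest in MDA-MB-231 cells. SERPINB2, an inhibitor of urokinase, was at 0.171 CPM in MDA-MB-231 cells and 0, 0.0132, 2.47, 55.3 and 44.7 CPM in the other groups. Among 38 matrix proteases and inhibitors, 11 were higher and 16 lower (median -0.06, and 3.03 against the same pool alone). The membrane protease ADAM8 was at 20.9 CPM in MDA-MB-231 cells and 0.798, 1.44, 2.50, 0.0555 and 1.44 CPM in the other groups, while MMP2 was at 0.0856 CPM beside 0 to 97.4 CPM. Integrins and matrix receptors had 5 of 23 higher and 8 lower (median -0.32, and 1.34 against the same pool alone), with ITGB4, the partner of ITGA6, at 52.8 CPM in MDA-MB-231 cells and 7.78, 13.9, 17.5, 0.277 and 10.3 CPM in the other groups. ITGA4 was at 0.0122 CPM beside 0 to 88.2 CPM.

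The line gave rise to sublines selected in mice for spread to lung or bone, whose signatures are widely used. In these parental cells 1 of 19 lung signature genes was higher and 14 were lower (median -1.80), and 2 of 14 bone signature genes were higher and 7 lower (median -1.004). Against the 2 groups of the same capture these medians were 0.92 and 3.45. NEDD9, a scaffold of adhesion signalling, was at 28.0 CPM in MDA-MB-231 cells and 15.9, 1.1, 7.47, 11.1 and 0.780 CPM in the other groups. IL11, a cytokine of the bone signature and a naming marker, was at 63.5 CPM in MDA-MB-231 cells and 1.29, 1.43, 3.53, 33.6 and 3.07 CPM in the other groups. RUNX2, a bone transcription factor, was at 24.9 CPM in MDA-MB-231 cells and 0.392, 0.477, 7.65, 24.0 and 13.8 CPM in the other groups. The chemokine receptor CXCR4 was at 1.44 CPM and the collagenase MMP1 was described above. Of 26 cytokine and NF-kB genes, 4 were higher and 11 lower (median -0.55, and 2.82 against the same pool alone), with IL1B, an inflammatory cytokine, at 0.0979 CPM in MDA-MB-231 cells and 0.0145, 0.0265, 2.51, 10.6 and 221 CPM in the other groups. IL1A was at 0.0612 CPM. Of 30 YAP and TGF-beta targets, 8 were higher and 10 lower (median 0.41, and -0.10 against the second pool alone). Beside ANKRD1 and F3, INHBA, a subunit of activin, was at 1.03 CPM in MDA-MB-231 cells and 0.0580, 0.0662, 23.5, 248 and 18.6 CPM in the other groups. ID2 was at 13.6 CPM in MDA-MB-231 cells and 149, 385, 70.7, 72.6 and 6.88 CPM in the other groups.

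Among metabolic lists, 7 of 36 hypoxia and glycolysis genes were higher and 3 lower (median 0.32). SLC16A3, an exporter of lactate, was at 191 CPM in MDA-MB-231 cells and 5.05, 3.81, 43.2, 16.8 and 49.0 CPM in the other groups. SLC2A1, the glucose transporter GLUT1, was at 179 CPM in MDA-MB-231 cells and 21.2, 22.5, 43.4, 59.7 and 37.7 CPM in the other groups. Both were highest in MDA-MB-231 cells. Cholesterol synthesis had 0 of 24 genes higher and 10 lower (median -0.91), with negative pairwise medians against each group (-0.68, -0.91, -0.58, -0.77 and -0.54). SQLE was at 23.6 CPM in MDA-MB-231 cells and 118, 158, 183, 272 and 245 CPM in the other groups. HMGCS1, an early enzyme of the pathway, was at 13.0 CPM in MDA-MB-231 cells and 91.6, 61.1, 59.1, 85 and 26.7 CPM in the other groups. Of 28 genes of the unfolded protein and amino acid response, 0 were higher and 10 lower (median -0.26), with the secreted glycoprotein gene STC2 at 1.21 CPM in MDA-MB-231 cells and 53.7, 4.06, 14.2, 345 and 44.9 CPM in the other groups. Metallothioneins and NRF2 targets had 1 of 32 higher and 12 lower (median -0.63, and 0.94 against the same pool alone), with AKR1C3, an aldo-keto reductase, at 127 CPM in MDA-MB-231 cells and 0.885, 1.69, 67.2, 91.6 and 3.38 CPM in the other groups. ALDH1A3 was at 3.24 CPM in MDA-MB-231 cells and 1.26, 0.0662, 416, 12.2 and 183 CPM in the other groups. Heat shock and immediate early genes had 1 of 28 higher and 5 lower (median -0.11, and 0.14 against the second pool alone), with IER5 at 82.6 CPM and BTG2, an antiproliferative gene, at 2.78 CPM beside 0.555 to 85.9 CPM.

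Cancer-testis genes are silent in most normal tissues and often active in tumours. Of 13 measured here, 1 was higher and 11 were lower in MDA-MB-231 cells (median -1.73, and 2.01 against the same pool alone). The exception was the naming marker SPANXB1 at 10.5 CPM in MDA-MB-231 cells and 0.0580, 0.0927, 0.0218, 1.47 and 0.390 CPM in the other groups. MAGEA4 had 0 UMIs in MDA-MB-231 cells, which allows up to 0.0451 CPM, beside 678 CPM in MDA-MB-436-like cells, and PRAME also had 0 UMIs. In the cell cycle lists, 2 of 48 G1/S genes were higher and 0 lower (median 0.22), and 4 of 54 G2/M genes were higher and 2 lower (median 0.40). E2F8 and TYMS led the former at 33.5 and 304 CPM, and DLGAP5 and KIF20B, which act on the spindle, the latter at 282 and 226 CPM. CBX5 and HMMR were the lowest of the G2/M genes against the mean (81.5 and 39.5 CPM beside 108 to 277 and 51.8 to 148 CPM).

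A run of neighbouring genes on chromosome 9 was nearly silent. The region holds CDKN2A, whose products restrain CDK4, CDK6 and MDM2, and it is known as deleted in this line. CDKN2A was at 0.538 CPM in MDA-MB-231 cells and 11.6, 23.2, 1.46, 3.88 and 126 CPM in the other groups, with an interval of 0.391 to 0.723 CPM from 44 UMIs in 2840 cells. MTAP, a salvage enzyme of the methionine pathway 0.165 Mb before it, was at 0.355 CPM in MDA-MB-231 cells and 14.4, 17.9, 6.96, 31.1 and 46.4 CPM in the other groups, and KLHL9, a ubiquitin ligase adaptor 0.638 Mb before it, at 0.159 CPM in MDA-MB-231 cells and 9.65, 10.2, 13.5, 18.5 and 12.6 CPM in the other groups. FOCAD, 1.31 Mb before it, was at 0.624 CPM in MDA-MB-231 cells and 5.11, 8.65, 6.64, 8.67 and 9.14 CPM in the other groups. In these genes the MDA-MB-231 cells lay below every other group. CDKN2B had 2 UMIs, HACD4 1 UMI and MIR31HG and DMRTA1 none, but these genes were also low in several other groups. The antisense gene CDKN2B-AS1 was not lowest in MDA-MB-231 cells. It was at 0.526 CPM there (43 UMIs), beside 0.334 CPM in BT-474-like, 0.523 CPM in HCC38-like and up to 7.52 CPM in Hs578T-like cells. The next genes outward were not low: MLLT3, 1.63 Mb before CDKN2A, was at 10.7 CPM in MDA-MB-231 cells and 3.15, 9.59, 4.39, 8.96 and 1.80 CPM in the other groups, the highest of the 6, and RPS6, a ribosomal protein gene 2.59 Mb before it, at 1433 CPM in MDA-MB-231 cells and 1218, 1220.02, 1063, 2109 and 1667 CPM in the other groups. On the other side the neuronal gene ELAVL2, 1.72 Mb after CDKN2A, was at 0.135 CPM beside 0.0544 to 6.94 CPM and cannot mark an edge. Of the 13 genes on this list 5 were measured, and 4 of them were lower (median -3.58). Whether the few UMIs left were free RNA from other cells of the pool was not tested.

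**Figure D3:**
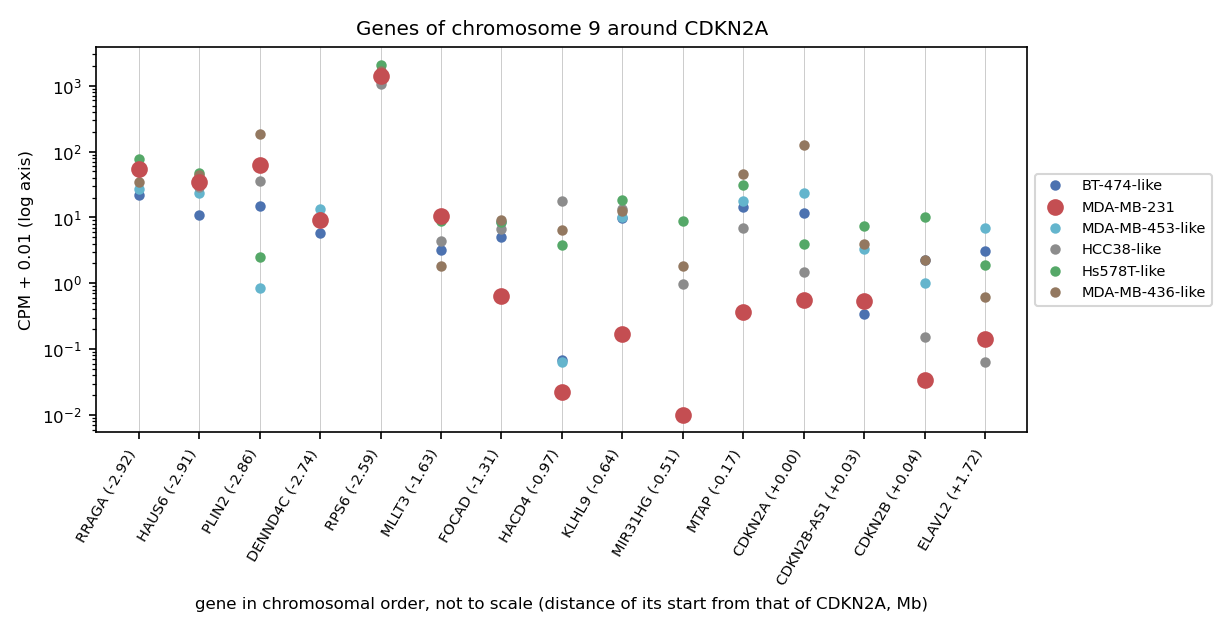
CPM + 0.01 on a log axis (y axis) for 15 genes of chromosome 9 in chromosomal order (x axis, not to scale, with the distance of each start from that of CDKN2A in Mb), with 1 point per group. MDA-MB-231 (large red points) is the lowest group, or level with the lowest at 0 UMIs, from FOCAD through CDKN2A, and lies among or above the others from RRAGA to MLLT3. At CDKN2B-AS1 it lies above the BT-474-like and HCC38-like groups.

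By chromosome, the median log2 ratio of MDA-MB-231 cells to the mean of the other groups was lowest on chromosomes 22 and 16 (both -0.59) and 8 (-0.50), beside -0.16 over all genes with a position. It was highest on chromosomes 6 (0.17) and 10 (0.14). On chromosome 22, 27.3% of 256 genes were lower and 1.17% higher, and on chromosome 6 these shares were 12.8% and 15.9% of 548 genes.

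Variation among the MDA-MB-231 cells was measured with each cell thinned to 10000 UMIs, which left out 25 cells and kept 2815. A gene was called variable where its variance was at least 2 times that of counting noise with a small allowance for cell size. Of 8040 genes tested, 216 (2.69%) were variable, beside 2.09% to 5.04% in the other groups. ISG15 was the most variable of all, with a ratio of 50.1. Its median was 2 UMIs per 10000, its 95th percentile 15 and its highest cell 283. Its ratio in the other groups was 6.05, 10.7, 16.4, 1.22 and 5.96.

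Further interferon genes stood among the 20 most variable, with IFIT3 at a ratio of 15.9 (at most 72 UMIs in a cell), IFIT2 at 10.4, ISG20 at 10.3 and IFIT1 at 7.62. The nuclear noncoding RNAs MALAT1 and NEAT1 (27.5 and 12.4) and the mitochondrial transcripts MT-ATP6, MT-CO2, MT-CO3 and MT-CO1 (8.09 to 11.5) made up another part. These vary in every group: MALAT1 had ratios between 23.04 and 44.6 elsewhere. CST1, a cystatin secreted as protease inhibitor, had a ratio of 18.2 with a UMI in 7.96% (6.98 to 9.02) of the cells and up to 76 UMIs in 1 cell. KRT81, a hair-type keratin, had 17.7 with a UMI in 36.4% (34.6 to 38.2). IGFBP6 (12.8), S100A6 (12.5), PLAAT4 (12.3), the replication-linked histone HIST1H4C (11), IL11 (8.90), FTL, the ferritin light chain (8.63), and G0S2 (7.91) completed the 20. CST1 has close paralogs such as CST4, so that their reads may be split.

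By list, to be read beside the 2.69% of all genes tested, 15 of 33 interferon-stimulated genes with enough UMIs were variable (45.5%), as were 20 of 54 G2/M genes (37.0%), 8 of 23 matrix proteases and inhibitors (34.8%), 8 of 29 mesenchymal genes (27.6%) and 6 of 31 RAS and ERK response genes (19.4%). Like shares were met in ribosomal protein genes (21 of 86, 24.4%) and in heat shock and immediate early genes (6 of 26, 23.1%). The lists were not matched to all genes in level, so these shares do not single out a list. The 0 variable genes among 48 G1/S genes and among 20 cholesterol genes are near the 2.69% of all genes. Of the 216 genes, 136 were on a list, mitochondrial or ribosomal. Across the 2815 cells, on a log scale, mitochondrial transcripts correlated with each other (Pearson r 0.57 to 0.81), IFIT3 with IFIT2 (0.60) and IFIT1 (0.56), ISG15 with ISG20 (0.54) and IFIT3 (0.50), and MALAT1 with NEAT1 (0.59). These r describe cells of 1 library that share depth and free RNA.

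Of the naming markers, IFI27 was the most widely found. At 10000 UMIs per cell a UMI of it was in 69.9% (68.2 to 71.6) of the cells, of CD74 in 44.8% (42.9 to 46.6), of ARHGDIB in 25.3% (23.7 to 26.9), of IL11 in 21.5% (20 to 23.1) and of SPANXB1 in 4.30% (3.58 to 5.11). Before thinning a UMI of IFI27 was in 90%, of CD74 in 71.4%, of ARHGDIB in 42.3%, of IL11 in 34.4% and of SPANXB1 in 6.16% of the cells. In the other 2 groups of the same pool the thinned share was at most 2.21% for each but ARHGDIB, which had a UMI in 12.9% and 9.71%. IL11 was not more widely held in this line than in Hs578T-like cells of the second pool, of which 25.4% (23.3 to 27.5) had a UMI. IL11 was uneven, with a 95th percentile of 4 UMIs and a highest cell of 74.

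The summed interferon list had a median of 21 UMIs per 10000 in MDA-MB-231 cells, with 5th and 95th percentiles of 10 and 55.3 and a highest cell of 519. In 120 cells or 4.26% (3.55 to 5.08) it was at least 3 times the group's median. The variance of this sum was 37.4 times that of counting, beside 40.5 in HCC38-like cells and 2.38 to 10.1 in the others. The G2/M sum had a median of 82 UMIs per 10000 (15 to 235) and 42.2% of cells at 100 or more, beside 10.9% to 33.2% in the other groups. Its variance ratio was 50.5, within the 25.3 to 60.96 of the other groups. The mesenchymal sum had a ratio of 25.5 beside 8.01 to 15.6 elsewhere, and S100A6 and VIM are on that list.

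**Figure D4:**
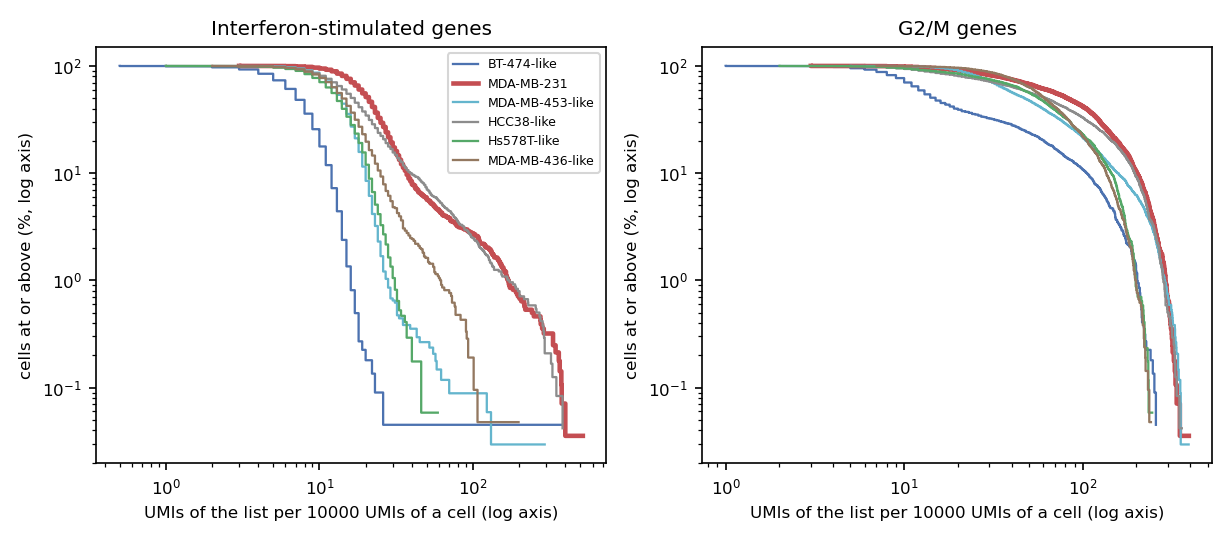
Share of cells (y axis, log scale) with at least a given summed count per 10000 UMIs (x axis, log scale) for the interferon-stimulated list and the G2/M list, with 1 line per group. The MDA-MB-231 line (thick red) ends at 519 for the interferon list, where its median is 21, and for the G2/M list it lies to the right of the others over most of the range, with 42.2% of cells at 100 or more.

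To read the genes that accompany this range without reusing the same counts, each cell's UMIs were dealt at random into a first and a second set of like size. The 284 cells in the top 10% of the interferon sum by the first set were compared with the other 2556 in the second set, a comparison chosen after the variable genes had been seen. The sum was 8452 CPM in the top cells and 2020 CPM in the others in the second set, and 226 of the 284 (79.6%) were in the top 10% by that set as well. Near the limit, 149 cells lay within 10% of it, so it divides a range and not a type. Of 3381 genes that reached 50 CPM, 49 were 2-fold or more higher in the top cells (1.45%) and 3 were 2-fold or more lower (0.0887%). The 49 include genes of the list that chose the cells. Median UMIs per cell were 24157 and 26420.5, and median mitochondrial shares 6.37% and 6.28%.

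Since the list chose these cells, the height of its genes is a description. OASL, an antiviral protein related to OAS enzymes, was at 123 and 0.405 CPM in top and other cells, ISG20, an RNA exonuclease, at 137 and 2.43 CPM, IFIT3 at 638 and 26.9 CPM and ISG15 at 2924 and 187 CPM. The list did not move as one. IFI27 was at 359 and 155 CPM and the kinase EIF2AK2 at 87.6 and 89.3 CPM. Genes off the list included PLAAT4, a phospholipase, at 667 and 67.5 CPM, IGFBP6 at 702 and 102.4 CPM, ZC3HAV1, an antiviral zinc finger protein, at 225 and 47.2 CPM, TNFSF10, the death ligand TRAIL, at 149.6 and 31.9 CPM and PMAIP1, which encodes NOXA, at 419 and 132 CPM. Of antigen presentation genes, HLA-B was at 734 and 317 CPM, PSMB9 at 144 and 63.8 CPM and CD74 at 136 and 67.1 CPM. The 3 lower genes were IL11 at 25.1 and 68.0 CPM, ODC1, an enzyme of polyamine synthesis, at 58.6 and 151 CPM and the noncoding RNA DANCR at 81.1 and 164 CPM. With the sets exchanged 46 genes were higher, 43 of them shared, and in the cells of the larger or the smaller subgroup below alone 18 and 110 were higher. The folds moved as well. Within subgroups 1 and 2 they were 6.32 and 47.2 for ISG20, 11.5 and 94.9 for OASL, 7.42 and 55.8 for IFIT3, 5.91 and 25.7 for ISG15 and 4.06 and 28.3 for PLAAT4, while IFI27 was at 2.07 and 2.69.

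A motif of 10 bases (GAAA, any 2 bases, GAAA), a core of the site bound by interferon-activated factors, was looked for on both strands in RefSeq promoters of GRCh38.p14, from 250 bases before to 50 bases after each start. It was present in 996 of 27305 promoters (3.65%), in 242 of 8652 promoters of measured genes (2.80%), in 23 of the 34 matched of 45 measured interferon-stimulated genes (67.6%) and in 9 of the 11 matched of 15 variable ones (81.8%). A match is a description and does not show binding. The 160 bases directly before the start are printed for 4 genes, plus strand, 5′ to 3′, with matches in capitals, TTTC, any 2 bases, TTTC being the motif read from the other strand. The first 3 genes belong to the 5 interferon genes among the 20 most variable, and the last, IFI27, is the naming marker that was found in most cells. The start used for IFI27 is that of its RefSeq promoter and lies inside the gene interval given above, so its printed bases do as well.
ISG15 chr1:1013337-1013496: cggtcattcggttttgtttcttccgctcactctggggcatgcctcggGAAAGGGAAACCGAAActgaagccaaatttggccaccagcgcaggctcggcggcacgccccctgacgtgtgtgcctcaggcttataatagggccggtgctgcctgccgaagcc
IFIT3 chr10:89327837-89327996: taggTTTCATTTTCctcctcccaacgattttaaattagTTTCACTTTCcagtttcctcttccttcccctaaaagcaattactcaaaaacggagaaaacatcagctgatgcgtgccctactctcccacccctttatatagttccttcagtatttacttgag
ISG20 chr15:88638856-88639015: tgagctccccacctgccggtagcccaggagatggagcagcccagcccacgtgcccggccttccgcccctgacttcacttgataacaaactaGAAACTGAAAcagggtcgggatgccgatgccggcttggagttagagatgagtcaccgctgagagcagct
IFI27 chr14:94110576-94110735: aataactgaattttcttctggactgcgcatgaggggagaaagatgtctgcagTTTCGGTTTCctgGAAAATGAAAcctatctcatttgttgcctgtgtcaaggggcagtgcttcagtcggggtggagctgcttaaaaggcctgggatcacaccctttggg
ISG15 holds 2 overlapping matches, IFIT3 and IFI27 hold 2 separate ones and ISG20 holds 1. Between top and other cells IFI27 differed 2.30-fold and ISG20 40.2-fold, the latter 6.32-fold within subgroup 1 with a top 10% of its own. CD74 and C4BPB had no match in the 300 bases searched.

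Clustering of the first sets, without mitochondrial, ribosomal and cell cycle genes, divided the cells into subgroups of 1872 (65.9%), 943 (33.2%) and 25 (0.880%), and levels below come from the second sets. The clusters were made from these cells, so the differences describe the division and no test is given. The 2 large subgroups were alike in depth (medians of 26369.5 and 25441 UMIs), mitochondrial share (6.56% and 5.79%) and CMO301 share (95.5% and 94.5%), and Scrublet marked no cell of either. In each of 5 other ways of dividing the cells, between 835 and 937 cells of the smaller subgroup of 943 were found again together, which was 96.6% to 99.6% of that division's smaller subgroup. Of 3407 genes at 50 CPM or more, 37 (1.09%) were 2-fold or more higher in subgroup 2 and 21 (0.616%) as much lower.

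The genes higher in subgroup 2 were led by PRSS2, a trypsinogen, at 0.739 CPM in subgroup 1 and 59.4 CPM in subgroup 2, and its UMIs were in 0.432% (0.187 to 0.850) and 23.1% (20.4 to 25.9) of the thinned cells. CST1 was at 2.37 and 82.3 CPM, TSPAN8, a tetraspanin, at 1.81 and 56.9 CPM, and CST4 at 3.58 and 63.0 CPM. PRSS2, CST1 and CST4 have close paralogs, and their counts are uncertain to that extent. AGR2, a disulphide isomerase of secretory epithelia, was at 11.5 and 93.5 CPM, but it was found in 95.5% and 99.6% of the other cells of the pool, and the part of free RNA in its level was not tested. ESAM was at 5.10 CPM in subgroup 1 and 53.3 CPM in subgroup 2, with UMIs in 4.16% (3.30 to 5.17) and 39.4% (36.3 to 42.6) of cells. ARHGDIB was at 12.7 and 108 CPM and found in 8.32% (7.10 to 9.67) and 58.8% (55.6 to 62.0) of cells, where 9.71% to 12.9% of the pool's other cells held it. WNT7B, a secreted ligand, was at 10.9 and 54.0 CPM, the tissue activator PLAT at 20.1 and 81.7 CPM, and AHNAK2 at 19.1 and 71.3 CPM. Of the other naming markers, IL11 was at 36.6 and 122 CPM and SPANXB1 at 5.43 and 20.5 CPM. KRT81 was at 81.0 and 344 CPM, although like shares of the cells held it (35.9% and 37.7%).

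Genes lower in subgroup 2 were led by SAA1 at 311 CPM in subgroup 1 and 34.4 CPM in subgroup 2, found in 66.4% (64.2 to 68.5) and 13.3% (11.2 to 15.7) of cells. NNMT, which methylates nicotinamide, was at 83.9 and 14.1 CPM, filaggrin (FLG) at 59.4 and 12.7 CPM, and FST, follistatin, which binds activin, at 70.7 and 18.9 CPM. THBS1, a matrix glycoprotein that activates TGF-beta, was at 381 and 117 CPM, and SLC7A5, an amino acid transporter, at 93.4 and 28.5 CPM. LRRC61 was at 104 and 32.5 CPM, TTC39C at 70.0 and 24.5 CPM, AKR1C3 at 159 and 60.2 CPM, KIAA1217 at 58.0 and 22.2 CPM, CCDC80 at 79.4 and 30.7 CPM and BACE2, a secretase-type protease, at 60.6 and 23.4 CPM. Some genes that set the whole line apart thus differed between its subgroups, among them SAA1, LRRC61 and C4BPB (107 and 52.7 CPM). Others stayed under 2-fold: CD74 was at 74.1 and 73.0 CPM, S100A4 at 1889 and 2263 CPM and IFI27 at 165 and 196 CPM.

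By list, at 10 CPM or more in a subgroup, 130 of 8299 genes (1.57%) were 2-fold or more higher in subgroup 2 and 81 (0.976%) as much lower (median log2 difference -0.03). Epithelial genes had 3 of 16 higher, 0 lower and a median of 0.69. Matrix proteases and inhibitors had 4 of 23 higher, 0 lower and a median of 0.68, and RAS and ERK response genes 5 of 33 higher, 0 lower and 0.33. Metallothioneins and NRF2 targets had 0 of 26 higher, 5 lower and a median of -0.44, and mesenchymal genes 0 of 29 higher, 4 lower and -0.20. The summed level of the mesenchymal list went the other way, at 22563 and 28578 CPM in subgroups 1 and 2, with S100A6 its most counted gene at 12022 and 16866 CPM. G1/S genes (median -0.03) and G2/M genes (0.02) had none of 48 and 54 beyond 2-fold, and these 2 lists had been kept out of the clustering.

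Interferon genes depended on how the cells were divided. Of 37, 12 were 2-fold or more higher in subgroup 2 and 0 as much lower (median 0.25), and the list summed to 2337 and 3273 CPM in subgroups 1 and 2. The top 10% of cells by the interferon sum made up 8.12% and 13.8% of them. When the cells were divided by k-means these shares were 10.2% and 9.65%, and with a stricter cell filter they were 11.2% and 6.32%, with list sums of 2840 and 2114 CPM. The log2 difference of ISG15 was 1.56, 0.48 and -0.74 in these 3 divisions. Interferon level is therefore not given as a property of either subgroup.

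**Figure D5:**
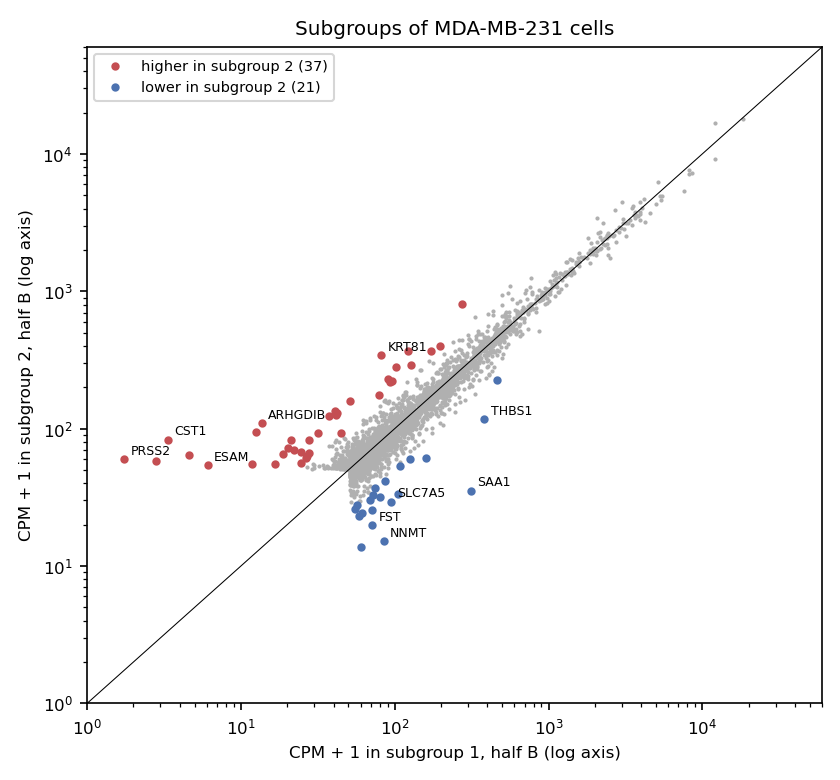
CPM + 1 in subgroup 2 (y axis) against subgroup 1 (x axis), both on log axes and from the second sets of UMIs, for 3407 genes (points) at 50 CPM or more in either. Red points are the 37 genes higher and blue points the 21 genes lower in subgroup 2 by 2-fold or more, with PRSS2 and CST1 far above and SAA1 far below the line of equal level.

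The 25 cells of subgroup 3 held more RNA and less of their own oligo, with medians of 56892 UMIs, 7512 genes and 87.6% CMO301, and 9.01% mitochondrial UMIs. Scrublet marked 18 of them, which were all of its calls among the members. The summed BT-474 markers were at 652 CPM in these cells, beside 60.1 and 54.2 CPM in subgroups 1 and 2, and the MDA-MB-453 markers at 389 CPM beside 217 and 163 CPM. Without these cells the 20 highest genes were the same, 17 genes were lowest, 15 of them shared, and 209 genes were variable, 202 of them shared.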

How the data were processed

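Gene and multiplexing oligo UMIs of the 2 libraries were read from the count matrix as the authors deposited it; per the file headers and the submitters' processing notes it was made with Cell Ranger (6.1.2 in the header) on GRCh38. Its values are counts, with 36601 genes, 12 oligos and 17605 barcodes. Counts of the filtered cells were summed per suffix group and scaled to CPM. A pseudocount of 1 CPM was used for ratios. Intervals are exact Poisson or Clopper-Pearson at 95% and cover counting error only. By the exact interval, a count of 0 allows up to 0.0451 CPM in MDA-MB-231 cells.

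Cells were thinned to 10000 UMIs for shares and variability, where variance was divided by mean + mean squared / 100 in genes with a mean of at least 0.1 UMI. For subgroups, 2000 variable genes, 20 components, 15 neighbours and Leiden clustering at resolution 0.1 were used (scanpy 1.11.5, igraph 0.11.9, scikit-learn 1.9.0, scipy 1.17.1, Python 3.11.15). Scrublet was run per capture with an expected rate of 0.06, marked 1.41% and 1.87% of barcodes, and its calls were kept in the main results. The calls of highest, lowest and variable genes were also run on simulated counts with planted changes. Those counts had a common profile and counting noise only. They therefore cannot show how the calls perform on lines and cells that differ as widely as the real ones.

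The members and the 35 gene lists were chosen with earlier results of these data known. Genes were named from the 15 highest and the 10 lowest genes, the 2 genes at each end of every list, the 20 most variable genes, the 12 genes furthest apart in each direction between the subgroups, the naming markers and ESAM; other genes named were picked after their values were seen. Alternatives covered cell filters, oligo share, doublets, scaling (edgeR 4.0.16 TMM), pseudocount, groups compared, thinning depth and clustering. Promoter sequences are from RefSeq. Sequences of the oligos were not used here.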

Additional observations from a re-analysis of the deposited data

How the results depend on the processing

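The 20 highest genes became 251 against the 2 groups of the same capture only, and the 15 lowest became 290 there, 71 against the 3 groups of the other capture only and 6 with a pseudocount of 5 CPM. Under the other alternatives there were 18 to 27 highest and 14 to 19 lowest genes. The number of lists with a median log2 ratio of 1 or more in size was 14, and 25 against the same capture only. Variable genes numbered 216, and 89 with cells thinned to 5000 UMIs, all 89 of them shared. The 49 genes higher in the interferon top 10% became 18 in subgroup 1 only and 110 in subgroup 2 only, each with a top 10% of its own. Of the list medians of 1 or more in size, those that changed sign did so against the other capture only for the BT-474 markers (0.16) and the receptor list (0.19), and against the same capture only for the HCC38 markers (0.31), the lung (0.92) and bone (3.45) signatures and the cancer-testis genes (2.01). Between the subgroups, k-means turned the log2 differences of IFIT3 (-0.034) and IFIT1 (-0.093), and a stricter cell filter (at least 5000 UMIs and 2000 genes, at most 10% mitochondrial UMIs) those of ISG15 (-0.74), HERC5 (-0.24), DDX58 (-0.26), IFIT2 (-1.40), IFIT3 (-1.42) and IFIT1 (-1.28). The alternatives that compare with fewer groups have fewer values to pass; for the others the cause was not tested.

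No paired analysis was possible because each line is 1 culture and the 2 deposited samples are 2 libraries of the same cells. Depth limits low genes: at 10000 UMIs per cell a gene present at 1 UMI in a cell is often missed. A group total with no UMI still allows 0.0451 CPM in MDA-MB-231 cells. No alternative leaves out a replicate, since there is none.
Leaving out the cells of subgroup 3 and all alternatives of the interferon top 10% were chosen after seeing the data.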
